A study of Mus musculus with 24 samples.

Results

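Pruriceptors that make natriuretic polypeptide b and somatostatin are a small class of unmyelinated sensory neurons. Their transcripts were followed here through 7 genes: Nppb, Sst, Nts, Il31ra, Osmr, Cysltr2 and Htr1f. The genes were chosen by symbol, and all 7 matched 1 Ensembl identifier each among the 47643 genes of the count tables. The libraries came from sorted L4 dorsal root ganglion (DRG) cells of 8 mice on a mixed C57BL/6 and AJ background, aged 8 to 9 weeks. Control mice (n = 4) were Tsc2 flox/+ and Nav-Tsc2 mice (n = 4) Tsc2 flox/null. Both groups carried the Nav1.8-Cre driver and the green reporter Rosa26-ZsGreen, so the controls kept 1 intact Tsc2 allele in the recombined cells. In each genotype replicates 1 and 2 were male and replicates 3 and 4 female. Every ganglion lay on the side opposite a sciatic nerve crush made 3 d earlier, and Nav1.8-Cre acts mostly in C-fiber nociceptors but also in some myelinated neurons. From each mouse 3 technical libraries (A to C) of 100 GFP-positive cells were sequenced, 24 in all.

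Nppb and Sst encode peptides that these neurons release in the spinal cord, where natriuretic peptide acts on the guanylyl cyclase receptor Npr1 and somatostatin quiets inhibitory interneurons. Nts encodes neurotensin, a peptide that labels the same class in the mouse. The class senses itch mediators from immune cells: Il31ra and Osmr are the 2 chains of the interleukin-31 receptor, Cysltr2 binds cysteinyl leukotrienes, and Htr1f is an inhibitory serotonin receptor. A library of 100 cells can hold few or many cells of a rare class, and in such a pool fewer cells of the class and less RNA per cell cannot be told apart.

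The 3 peptide genes are single short transcription units, and the 250 bases before their starts are shown because the genes were high and low together across control libraries but parted between genotypes. The windows are from RefSeq on GRCm38.p6, each printed 5′ to 3′ on the strand of its gene. They cover chr4:147985650-147985899 on the plus strand for Nppb, chr16:23890845-23891094 on the minus strand for Sst and chr10:102490419-102490668 on the minus strand for Nts. Capitals mark matches to the motifs named after the sequences.
Nppb: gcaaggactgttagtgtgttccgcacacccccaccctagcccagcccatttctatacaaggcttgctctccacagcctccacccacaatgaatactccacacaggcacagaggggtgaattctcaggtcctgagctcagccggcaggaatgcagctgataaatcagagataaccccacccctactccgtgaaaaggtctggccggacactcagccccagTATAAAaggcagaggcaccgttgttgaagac
Sst: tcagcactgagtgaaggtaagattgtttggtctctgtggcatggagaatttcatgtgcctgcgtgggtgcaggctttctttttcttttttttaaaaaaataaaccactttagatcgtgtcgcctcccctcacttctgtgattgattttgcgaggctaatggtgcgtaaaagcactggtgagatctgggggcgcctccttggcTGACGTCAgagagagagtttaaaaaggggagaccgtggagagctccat
Nts: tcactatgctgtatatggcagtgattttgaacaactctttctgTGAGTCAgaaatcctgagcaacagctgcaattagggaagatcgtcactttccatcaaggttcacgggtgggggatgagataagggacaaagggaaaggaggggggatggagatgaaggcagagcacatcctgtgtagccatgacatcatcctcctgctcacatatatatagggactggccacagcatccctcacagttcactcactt

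The capitals in Nppb are a TATA box, TATAAA, whose first base lay at position -31 from the start, a motif found in 12.4% of all 32851 RefSeq promoter windows of this length. Those in Sst are a full cyclic AMP response element, TGACGTCA, at position -48, found in 1.55% of windows. Those in Nts are an AP-1 match, TGANTCA, at position -207, found in 6.75% of windows. The Il31ra window had a STAT match, TTCNNNGAA, at position -191 (7.02% of windows). That window, 13:112580663-112580912, lies inside the annotated gene, and 0 annotated transcripts held the bases after its RefSeq start. Of the motifs searched on both strands, 6 of 7 genes shared only the E-box CANNTG, which 66.2% of all windows hold and which is not capitalised above. No window of the 7 held the Runx letters TGTGGT (14.0% of windows) or the octamer ATGCAAAT (1.60%). These are letter matches in a fixed window and not measured binding sites. Positions are counted from the RefSeq start. The outermost starts that the GRCm38 annotation used here gives Nppb, Sst and Nts lie inside the windows. All 7 genes are annotated as protein coding on GRCm38. The counts cover all exons. The peptide genes lie at 4:147985788-147987205 for Nppb, 16:23889573-23890958 for Sst and 10:102481756-102490486 for Nts. The receptors lie at 13:112519898-112594360 (Il31ra), 15:6813577-6874969 (Osmr), 14:73025603-73049114 (Cysltr2) and 16:64924729-65105854 (Htr1f), all 4 on the minus strand.

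The 24 libraries held 8339220 to 34228180 counts on genes, with a median of 16882861 in control and 17062573 in Nav-Tsc2. Summed per mouse the totals were 47959617 to 61290435. Tsc2 itself was 20.9 ± 5.18 CPM (counts scaled to the library total) in control mice and 8.87 ± 1.52 in Nav-Tsc2 mice (SD, n = 4), a log2 fold change of -1.24 (SE 0.22, edgeR adjusted p = 0.00400), and the mice did not overlap. Of all genes tested, the mice did not overlap in 12.3% with Nav-Tsc2 lower and in 14.6% with Nav-Tsc2 higher. All 10 nociceptor markers were tested, and Scn10a, which encodes Nav1.8, was 670 ± 138 CPM in control and 608 ± 35.1 CPM in Nav-Tsc2 mice (edgeR adjusted p = 0.526).

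Between genotypes 3 of the 7 genes, Nppb, Sst and Il31ra, fell in Nav-Tsc2 mice, and Nts rose. Osmr, Cysltr2 and Htr1f did not pass the test. Calls needed an adjusted p below 0.05 together with a log2 difference larger than 0.5 either way. By this rule 8.00% of the 17178 genes in the test were lower in Nav-Tsc2 mice and 9.12% were higher, around a median difference of 0.01 on the log2 scale. All 7 genes passed the filter on low counts. Sst passed through the control mice, since 4 control mice but 1 Nav-Tsc2 mouse reached the limit of 0.180 CPM. At its Nav-Tsc2 level Sst thus had to differ to be tested. The other 6 genes reached the limit in all 8 mice.

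**Figure D1:**
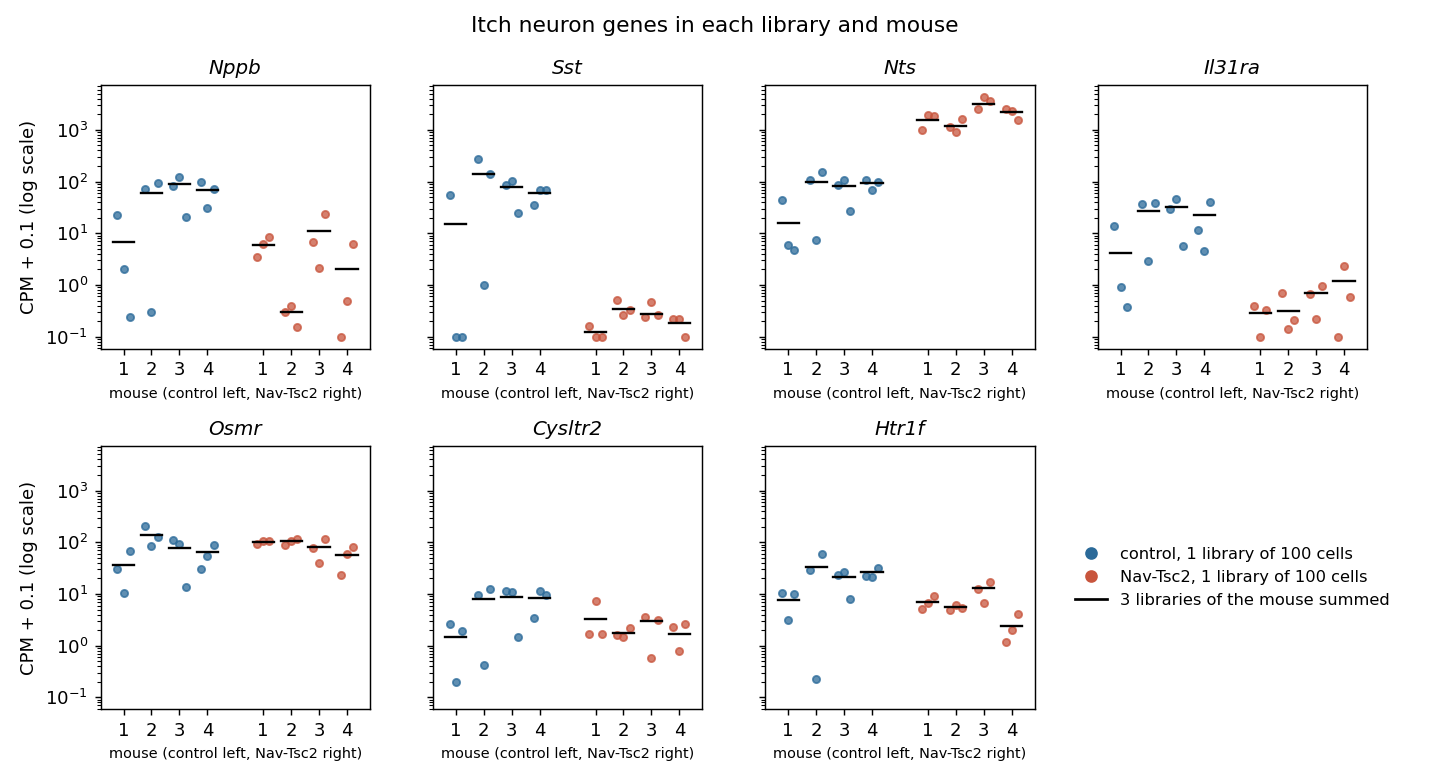
CPM plus 0.1 on a log axis for the 7 genes, with 1 point per library and a bar for each mouse's 3 summed libraries, control mice at left and Nav-Tsc2 mice at right. Sst lies under 1 CPM in all 12 Nav-Tsc2 libraries, and Nts lies at 903 CPM or more in all 12 of them.

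Among the peptides, Sst had nearly no counts after Tsc2 deletion. Control mice 1 to 4 had 14.8, 139, 79.2 and 59.7 CPM. Nav-Tsc2 mice 1 to 4 had 1, 14, 11 and 5 counts of Sst in all, a mean of 0.133 ± 0.101 CPM against 73.1 ± 51.3 CPM in control (SD, n = 4). The summed counts were 15543 in control and 31 in Nav-Tsc2, and no library of a Nav-Tsc2 mouse held more than 6. Every Nav-Tsc2 mouse was below every control mouse, as in 12.3% of all genes tested. The log2 fold change was -9.04 (SE 0.84, 95% interval -10.9 to -7.17, edgeR adjusted p = 0.000144), the second lowest of all genes tested. As Sst passed the filter only through control mice, this p and rank describe the difference and add no separate support. In the fit with no filter on low counts it was -9.04 as well (edgeR adjusted p = 1.78e-05).

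Nppb was lower by a smaller factor and with a wider spread. It was 6.73, 61.2, 89.9 and 67.4 CPM in control mice 1 to 4 and 5.97, 0.195, 11.1 and 1.90 CPM in Nav-Tsc2 mice 1 to 4. The groups overlapped, because control mouse 1 lay below Nav-Tsc2 mouse 3. The means were 56.3 ± 35.3 and 4.79 ± 4.86 CPM (SD, n = 4), a log2 fold change of -3.55 (SE 1.02, 95% interval -5.84 to -1.26, edgeR adjusted p = 0.0352). This call did not hold in 10 of 40 other fits, among them those without control replicate 2, 3 or 4 (edgeR adjusted p from 0.0595 to 0.0636), without Nav-Tsc2 replicate 1 (0.0865) or 4 (0.0921), and without library A of control replicate 1 (0.0728), A of Nav-Tsc2 replicate 3 (0.0621) or C of Nav-Tsc2 replicate 4 (0.0547). With the replicate number as a block the edgeR adjusted p was 0.0894.

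Nts went the other way. It was 15.7, 96.7, 83.8 and 93.9 CPM in control mice 1 to 4 and 1567, 1194, 3106 and 2182 CPM in Nav-Tsc2 mice 1 to 4. The groups did not overlap, with Nav-Tsc2 higher, as in 14.6% of all genes tested. The single libraries did not overlap either, with at most 153 CPM in control and at least 903 CPM in Nav-Tsc2. The summed counts were 15341 and 462696. The log2 fold change was 4.79 (SE 0.57, 95% interval 3.51 to 6.08, edgeR adjusted p = 0.000505).

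Among the receptors, Il31ra, the chain that gives the receptor its specificity for interleukin-31, fell. Its level was 4.07, 27.3, 32.2 and 22.7 CPM in control mice 1 to 4 and 0.185, 0.212, 0.604 and 1.10 CPM in Nav-Tsc2 mice 1 to 4. The groups did not overlap, with Nav-Tsc2 lower, as in 12.3% of all genes tested. The log2 fold change was -5.34 (SE 0.77, 95% interval -7.06 to -3.61, edgeR adjusted p = 0.00139). In the GRCm38 annotation used here, reads of Il31ra could be shared with Gm3226 over 0.793% of its exon length. The other 6 genes had no exon overlap with another gene.

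Osmr, the second chain, which also serves oncostatin M together with gp130, gave no detectable difference. It was 37.0, 138, 77.6 and 64.8 CPM in control mice 1 to 4 and 101, 106, 82.9 and 55.8 CPM in Nav-Tsc2 mice 1 to 4, so the groups overlapped. The log2 fold change was 0.13 (SE 0.35, 95% interval -0.66 to 0.91, edgeR adjusted p = 0.848), and it was -0.11 without control replicate 1. Whether the contrasts of the 2 receptor chains differ was not itself tested.

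Cysltr2 and Htr1f had lower means in Nav-Tsc2 mice without passing the test. Cysltr2 was 1.37, 8.05, 8.76 and 8.35 CPM in control mice 1 to 4 and 3.19, 1.66, 2.94 and 1.62 CPM in Nav-Tsc2 mice 1 to 4, overlapping only through control mouse 1. Its log2 fold change was -1.49 (SE 0.53, 95% interval -2.69 to -0.30, edgeR adjusted p = 0.0769). Htr1f was 7.46, 33.1, 21.6 and 26.2 CPM in control mice 1 to 4 and 6.83, 5.55, 13.1 and 2.27 CPM in Nav-Tsc2 mice 1 to 4. Control mouse 1 lay below Nav-Tsc2 mouse 3, so these groups also overlapped. Its log2 fold change was -1.67 (SE 0.55, 95% interval -2.89 to -0.45, edgeR adjusted p = 0.0563). The intervals are not adjusted for the number of genes tested.

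Control mouse 1 was the lowest of the 4 control mice for all 7 genes. Without it, Cysltr2 (log2 fold change -1.83, edgeR adjusted p = 0.00635) and Htr1f (-1.96, edgeR adjusted p = 0.0243) were also called lower, and Nppb (-3.92), Sst (-9.38), Il31ra (-5.68) and Nts (4.46) kept their calls. DESeq2 likewise called Cysltr2 (adjusted p = 0.0200) and Htr1f (adjusted p = 0.00628) lower on all 8 mice, where it called 8.98% of 21607 genes lower and 10.3% higher. The genotype contrast was not shown to differ between the sexes for any of the 7 genes (edgeR interaction, adjusted p from 0.809 to 0.998).

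Levels were set against each other per kilobase of exon. In control mice the order was Sst (101 ± 71.1 CPM per kb), Nppb (72.1 ± 45.2), Nts (58.1 ± 30.7), Htr1f (8.57 ± 4.21), Osmr (6.54 ± 3.50), Il31ra (3.80 ± 2.17) and Cysltr2 (2.31 ± 1.23; SD, n = 4). Only the step from Nts to Htr1f exceeded the spread, as mean ± SD overlapped for every other pair of neighbours. In Nav-Tsc2 mice the order was Nts (1612 ± 669 CPM per kb), Osmr (7.14 ± 1.87), Nppb (6.14 ± 6.23), Htr1f (2.69 ± 1.75), Cysltr2 (0.820 ± 0.288), Sst (0.185 ± 0.139) and Il31ra (0.0926 ± 0.0755). Here the steps from Nts to Osmr and from Cysltr2 to Sst exceeded the spread, and the other neighbours overlapped. The 3 peptides thus headed the control order, and Sst moved from the first to the sixth place.

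The 3 libraries of a control mouse differed widely although each came from 100 cells of that mouse. Nppb was 22.3, 1.95 and 0.139 CPM in libraries A to C of control mouse 1, and 72.1, 0.197 and 95.7 CPM in libraries A to C of control mouse 2. Sst in the same 6 libraries was 55.2, 0, 0, 267, 0.919 and 140 CPM, so 1 library held all 874 Sst counts of control mouse 1. The 3 libraries lowest in Nppb (1B, 1C and 2B) were also the 3 lowest in Sst, Nts and Il31ra. A count of 0 allows up to 3 counts in that library, and such limits cover counting error only, as amplified reads carry no molecular identifiers.

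In control mice 3 and 4 every library held the peptides. Nppb ran from 20.7 to 123 CPM and Sst from 25.1 to 101 CPM over these 6 libraries. Over all 12 control libraries Nppb had a median of 51.1 CPM (lowest 0.139, highest 123), Sst of 61.8 CPM (0 to 267), Nts of 78.0 CPM (4.74 to 153) and Il31ra of 12.7 CPM (0.279 to 45.0). The largest library of a control mouse carried a median of 57.6% to 68.6% of the mouse's counts for 6 of the genes and 77.7% for Il31ra. These are shares of raw counts, which also follow the depth of each library.

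In Nav-Tsc2 mice the largest library carried a smaller share of a mouse's Nts counts. That share was 42.1% to 46.9%, against 48.5% to 75.6% in control mice. Shares of raw counts also follow library depth. In Nav-Tsc2 mouse 3 the largest was library A, whose 2503 CPM of Nts was the lowest of that mouse. Nppb was 3.40, 6.08 and 8.42 CPM in libraries A to C of Nav-Tsc2 mouse 1 and at most 0.285 CPM in those of mouse 2. It was 6.76, 2.03 and 23.5 CPM in mouse 3 and 0, 0.384 and 6.19 CPM in mouse 4. Only library 3C exceeded 10 CPM of Nppb, a level that 9 of 12 control libraries exceeded.

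Across the 12 control libraries the genes were high and low together. Over the 21 pairs the median Pearson's r of log2(CPM + 1) was 0.844, a description without a test because libraries of a mouse share the mouse. Nppb with Nts (0.977), Sst with Nts (0.957) and Nppb with Sst (0.933) were the highest pairs. These values include libraries 1B, 1C and 2B, where Nppb was 1.95, 0.139 and 0.197 CPM and Sst 0, 0 and 0.919 CPM. No r was taken with all of these libraries left out, so co-variation among the other control libraries alone was not tested. Il31ra followed the peptides (0.894 with Nppb, 0.902 with Sst, 0.909 with Nts), and Cysltr2 with Htr1f reached 0.888. Pairs with Osmr were lower by this measure, with 0.326 to 0.680 over 6 pairs. By Spearman's rho they ran from 0.469 with Nppb to 0.788 with Sst, the latter above Nppb with Sst (0.771), and their median was 0.643 against 0.727 for the pairs with Cysltr2.

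**Figure D2:**
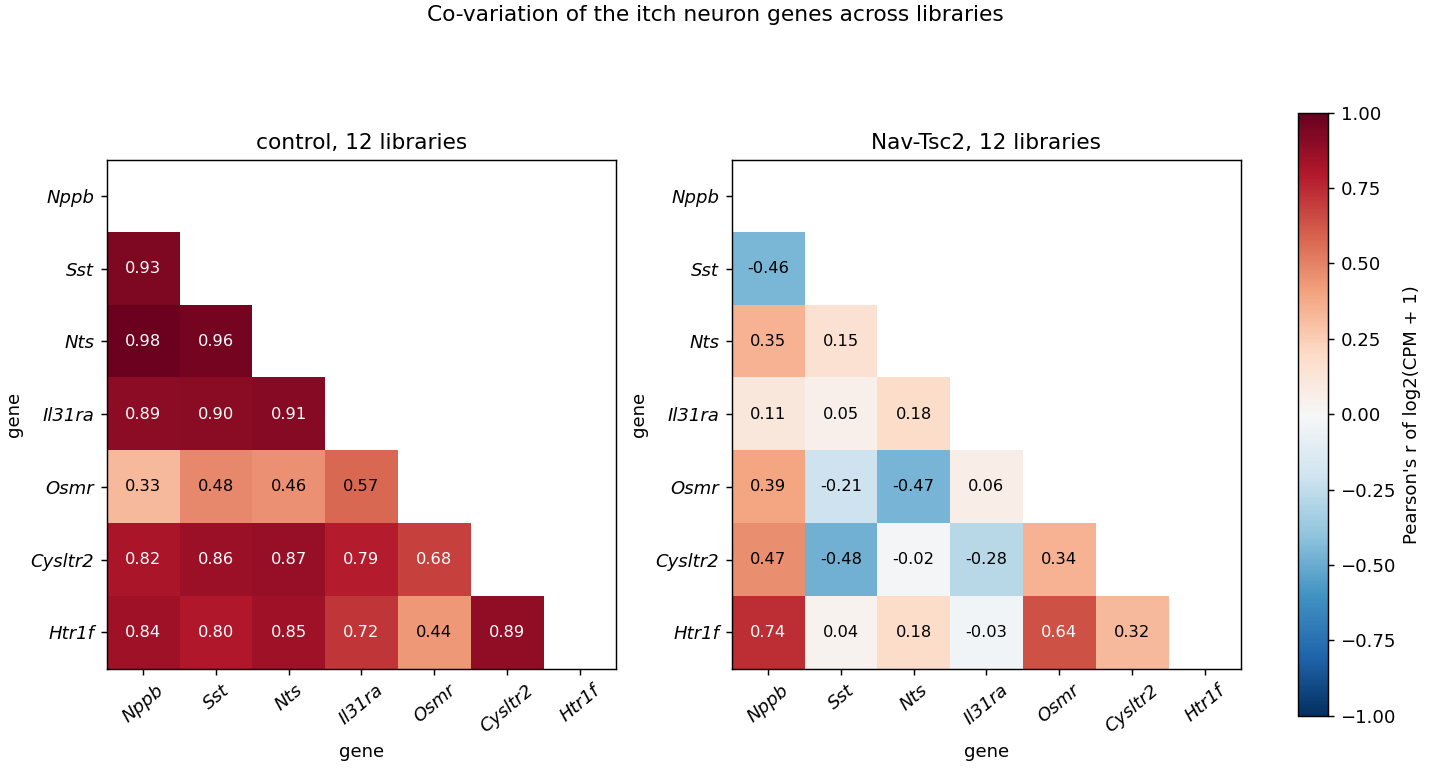
Pearson's r of log2(CPM + 1) for each pair of the 7 genes, over 12 control libraries at left and 12 Nav-Tsc2 libraries at right, in color from -1 to 1. The control pairs without Osmr lie between 0.72 and 0.98, and in Nav-Tsc2 the pair of Nppb and Htr1f is the highest at 0.74.

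Osmr was at unlike levels in the 3 libraries where the peptides were nearly missing. Control library 1C had 1475 Osmr counts (68.5 CPM) beside 3 of Nppb, and library 2B had 1307 (85.8 CPM) beside 3 of Nppb. Library 1B had 222 Osmr counts beside 41 of Nppb, and its 10.6 CPM of Osmr was the lowest CPM of the 12. Within mice, after each mouse's mean was taken away, the median r over pairs was 0.798, so the pattern was there among libraries of the same animal. Libraries 1B, 1C and 2B were part of that value. Without the 2 libraries farthest from the median of the summary, 1B and 2B, the median r not centred on mice was 0.731, against 0.844 with all 12. Library 1C was kept in that value. The mean of the 7 standardized genes had r of 0.08 with a library's total counts and of -0.19 with its number of genes detected.

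In the 12 Nav-Tsc2 libraries the median r over pairs was 0.110. Nppb with Htr1f had the highest r there (0.738), and Nppb with Nts had 0.346. Sst counts of 0 to 6 and Il31ra counts of 0 to 57 per library leave little to correlate, so low values with those genes are no finding. Htr1f, by contrast, kept 18 to 435 counts in every Nav-Tsc2 library.

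**Figure D3:**
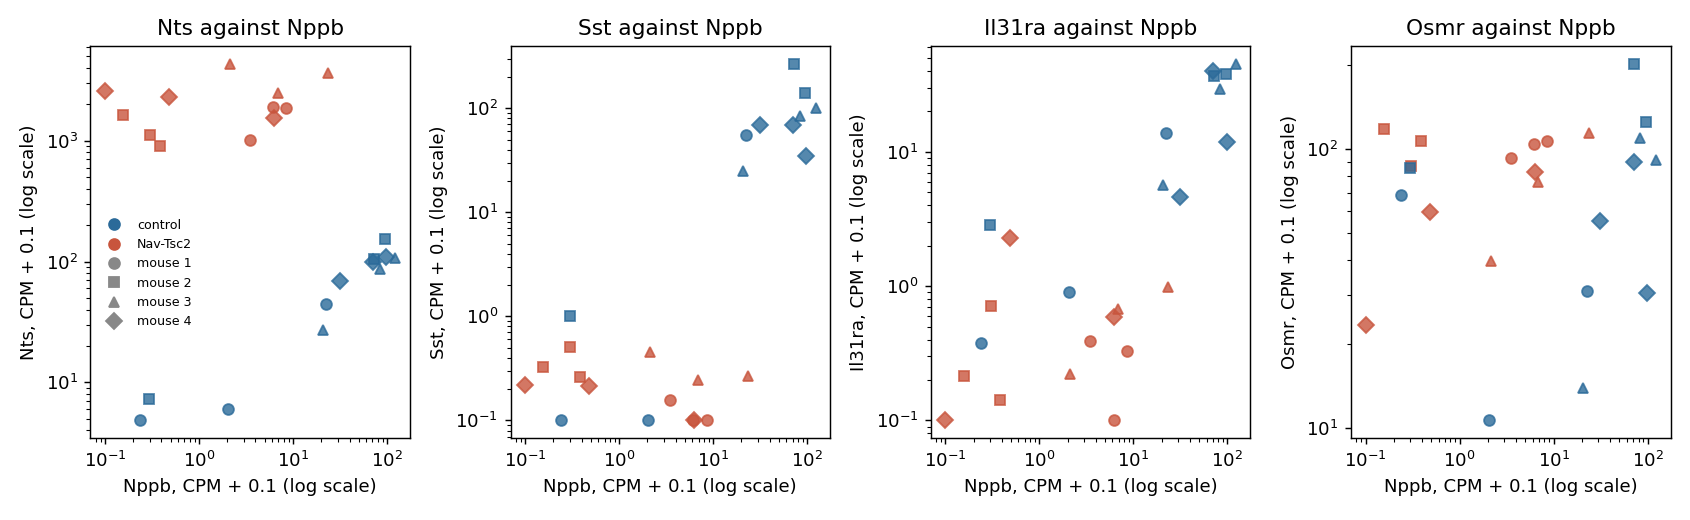
Nts, Sst, Il31ra and Osmr against Nppb in each of the 24 libraries, CPM plus 0.1 on log axes, colored by genotype and with a symbol for each mouse. Control libraries rise along a diagonal for Nts (r = 0.977), while Nav-Tsc2 libraries lie at 903 to 4339 CPM of Nts at any level of Nppb.

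Count ratios among the genes were taken within libraries and mice. In the 9 control libraries with over 10 CPM of Nppb, the count ratio of Sst to Nppb was 0.356 to 3.71 (median 1.22) and that of Nts to Nppb was 0.873 to 2.21 (median 1.40). Il31ra to Nppb was 0.119 to 0.615 (median 0.367). Summed per mouse, Sst to Nppb was 2.20, 2.26, 0.882 and 0.885 in control mice 1 to 4. In Nav-Tsc2 mice it was 0.00345, 0.0162 and 0.0446 in mice 1, 3 and 4, and 1.27 in mouse 2, which had 11 Nppb counts in all. Nts to Nppb was 0.932 to 2.33 in control mice and 263 to 6134 in Nav-Tsc2 mice. Il31ra to Nppb overlapped between genotypes, at 0.336 to 0.605 (median 0.402) in control mice and 0.0310 to 1.09 (median 0.317) in Nav-Tsc2 mice.

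Outside the 7 genes, 10 were nearest to their pattern among 10071 genes with at least 5 CPM on average in control libraries. They were found by Pearson's r with the mean of the 7 standardized genes over the 12 control libraries, a search whose median r was -0.03 and which gave 29 genes over 0.8. The nearest were Il1r2, the decoy receptor of interleukin-1 (0.917), Pld1, a phospholipase D (0.912), Casd1 (0.901), Bcl9 (0.894) and Mras (0.888). P2rx2, an ATP-gated channel (0.886), Smim20 (0.882), Gars, the glycyl-tRNA synthetase (0.881), Cln3 (0.873) and Adk, adenosine kinase (0.870), followed. Between genotypes 2 of the 10 were called, both higher, where 9.12% of all genes tested were higher and 8.00% lower. They were Gars (log2 fold change 0.96, SE 0.13, edgeR adjusted p = 0.000990) and Mras (0.51, SE 0.16, edgeR adjusted p = 0.0484). Il1r2 was 5.60 ± 3.61 CPM in control and 1.52 ± 0.606 CPM in Nav-Tsc2 mice (edgeR adjusted p = 0.0534), and P2rx2 was 8.64 ± 5.68 and 2.94 ± 0.972 CPM (edgeR adjusted p = 0.0551; SD, n = 4).

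The partners of the peptides were looked at next, against 8.00% of all genes tested called lower and 9.12% called higher. In the natriuretic peptide pathway 6 of 9 genes were tested. Calls went to 2 lower genes and 1 higher gene around a list median of 0.05 on the log2 scale. Both lower genes encode cyclic GMP-dependent kinases, Prkg2 (log2 fold change -2.25, edgeR adjusted p = 0.000949) and Prkg1 (-0.88, edgeR adjusted p = 0.00310). The higher gene was Corin, which encodes a protease that cleaves the natriuretic peptide precursors (28 counts in control and 1001 in Nav-Tsc2 mice), named after its values were seen. Corin passed the filter through the Nav-Tsc2 mice, of which 4 reached the limit against 1 control mouse, so it had to differ to be tested. In the somatostatin and neurotensin pathway 4 of 9 genes were tested, of which 1 was called in each direction. Ntsr2, a neurotensin receptor, fell (-1.92, edgeR adjusted p = 0.0263), and Sort1, which encodes the neurotensin-binding sortilin, rose (0.92, edgeR adjusted p = 0.0318), with a median over the list of 0.23.

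Of 13 signaling genes of the interleukin-31 receptor, all tested, 3 were called higher and 0 lower by edgeR. By that rule 9.12% of all genes tested were higher and 8.00% lower. DESeq2 called 4 of the list higher and 0 lower, where it called 10.3% of all its genes higher and 8.98% lower. The list median was 0.37 on the log2 scale. At an unadjusted edgeR p under 0.05, 0 of the 13 were lower and 6 higher, where 16.6% of all genes tested were lower and 17.2% higher. Stat5b (1.37, edgeR adjusted p = 0.000991), Stat3 (0.61, edgeR adjusted p = 0.00225) and Stat5a rose, all 3 being transcription factors downstream of cytokine receptors. Stat3 and Stat5a share exon bases on opposite strands, and the library kit does not keep strand. Jak1, the kinase whose level tracked the 7 genes most closely in this list across control libraries (r = 0.870), was at -0.47 between genotypes (edgeR adjusted p = 0.189).

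Of the leukotriene and serotonin receptors, 9 of 13 were tested. The calls were 6 lower and 1 higher around a list median of -2.62 on the log2 scale, where 8.00% of all genes tested were lower and 9.12% higher. Htr1a, among those called lower, passed the filter through the control mice, as 4 control mice but 3 Nav-Tsc2 mice reached the limit. Htr1b fell (-3.14, edgeR adjusted p = 0.000249) and Htr5a rose (2.42, edgeR adjusted p = 0.000252); both encode inhibitory serotonin receptors. Cysltr1, Ltb4r1 and Ltb4r2, the other leukotriene receptors on the list, had 0 counts in control mice and at most 2 in Nav-Tsc2 mice. Cysltr2 had at least 2 counts in every library. Of the itch transduction genes, 7 of 8 were tested and 1 was called lower, with a median of -0.43. That gene was Nmb, which encodes neuromedin B (-1.11, edgeR adjusted p = 0.000540), and Slc17a6, the vesicular glutamate transporter of these neurons, had the next smallest adjusted p (0.32, edgeR adjusted p = 0.0291) under the fold limit. Of 9 peptide processing genes 2 were called lower and 3 higher, the lower being Scg5 (-1.07, edgeR adjusted p = 0.000381) and Scg2 (-1.03, edgeR adjusted p = 0.00379), both of the granin family. Other granin family genes on the list went the other way or were not called: Chgb (0.57, edgeR adjusted p = 0.00430) and Pcsk1n (1.15, edgeR adjusted p = 0.00473) rose with the carboxypeptidase gene Cpe (0.83, edgeR adjusted p = 0.0116), and Chga was at -0.22 (edgeR adjusted p = 0.452). These 4 were named after their values were seen.

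Markers of other sensory neuron classes were read beside these results, and those named were picked after their values were seen. Among all genes tested 8.00% were called lower and 9.12% higher. Of 6 peptidergic markers, all tested, Calca, which encodes CGRP (log2 fold change -1.99, edgeR adjusted p = 0.00215), and Kit (-2.74, edgeR adjusted p = 0.00129) fell and Gal, which encodes galanin, rose (1.70, edgeR adjusted p = 0.0108). Their list median was -0.36, and their summed level was 9658 to 19909 CPM in control and 5099 to 8427 CPM in Nav-Tsc2 mice. Of 5 low-threshold C-fiber markers Th, the tyrosine hydroxylase gene, rose (3.12, edgeR adjusted p = 0.0282), with a list median of 0.88 and summed levels of at most 292 CPM in control and 170 to 1517 CPM in Nav-Tsc2 mice. Of 8 myelinated markers Ldhb (-0.80, edgeR adjusted p = 0.00409) and Cntnap2 (-1.01, edgeR adjusted p = 0.00474) fell, with a list median of -0.34 and summed levels of 1893 to 2581 CPM in control and 1354 to 1863 CPM in Nav-Tsc2 mice. Of 5 markers of the Mrgpra3 itch class 4 were tested and 2 were called lower, Mrgpra3 and Mrgpra1, both of which passed the filter through the control mice. The 4 tested markers summed to 32.3 to 99.3 CPM in control and 27.5 to 39.1 CPM in Nav-Tsc2 mice, a sum that joins unlike changes. Mrgpra3 had 6515 counts in control and 17 in Nav-Tsc2 mice, and Mrgpra1 had 542 and 45. Mrgprx1 had 1212 and 739 and Mrgprb5 3424 and 6292, and neither was called. Most of the Nav-Tsc2 sum was Mrgprb5. Of 7 markers of the Mrgprd class edgeR called 0 and DESeq2 0, against 1 higher at an unadjusted edgeR p under 0.05, with a list median of 0.53 and summed levels of 427 to 1439 CPM in control and 1416 to 1591 CPM in Nav-Tsc2 mice.

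Markers of other cells of the ganglion were read in the same way, against 8.00% of all genes tested called lower and 9.12% called higher. Of 11 glial markers 1 was called lower, S100b, with a median of 0.00 and summed levels of 2970 to 3111 CPM in control and 1949 to 2543 CPM in Nav-Tsc2 mice. Of 6 macrophage markers 5 were tested and Cx3cr1 was called higher, and their summed level was 1.23 to 4.51 CPM in control and 9.73 to 18.7 CPM in Nav-Tsc2 mice. Cx3cr1 had 7 counts in control and 1309 in Nav-Tsc2 mice, while Csf1r had 167 and 852, Cd68 110 and 462, Aif1 187 and 250, Mrc1 202 and 232, and C1qa 4 and 5. Of 5 endothelial markers Flt1 and Kdr were tested and called higher, and their summed level was 0.169 to 0.909 CPM in control and 5.46 to 15.4 CPM in Nav-Tsc2 mice. Most of that sum was Flt1, with 7 counts in control and 1885 in Nav-Tsc2 mice. Kdr had 77 and 393, while Pecam1 had 85 and 71, Cdh5 12 and 27, and Cldn5 3 and 5. Flt1, Kdr and Cx3cr1 passed the filter through the Nav-Tsc2 mice, of which 4 reached the limit for each. In control mice 0 reached it for Flt1 and Cx3cr1 and 2 for Kdr. The part of all these cells in the results for the 7 genes was not tested.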

How the data were processed

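RNA-seq libraries of about 100 GFP-positive cells each were made by the authors with the SMARTer Ultra Low RNA kit, which keeps no strand and adds no molecular identifiers. Per the labels and the methods, reads were checked with FastQC, aligned to mm10 with STAR and counted per gene with HTSeq (versions not given in the sources used here). The deposited values are raw counts per gene. Rows that name no gene were 47.6% to 51.5% of control and 49.0% to 55.9% of Nav-Tsc2 libraries and were left out. A deposited table of the authors' DESeq2 comparison, with its fold changes, p-values and 8 columns of per-mouse values, was not used.

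Symbols, exon lengths and positions came from the GRCm38 annotation and matched 47224 of 47643 genes. Its identifier versions differ from those of the counts for Sst, Nts, Il31ra, Cysltr2 and Htr1f. Starts, exon lengths and overlaps may therefore differ from the gene models that were counted. Counts of the 3 libraries were summed per mouse and tested with edgeR 4.0.16 (R 4.3.3) by the quasi-likelihood test, with TMM scaling, filterByExpr and Benjamini-Hochberg adjustment over 17178 genes. The standard error is the log2 fold change over the square root of F. CPM of mice and of libraries were each scaled by TMM. The script was tested on simulated counts. Technical libraries are not replicates, and n counts mice. No 2 libraries were duplicates, as at least 18427 genes differed between any pair. Alternatives used DESeq2 1.42.0 and limma 3.58.1 among others. All 7 genes are named, with the 2 genes of smallest adjusted p in each pathway list and the 10 nearest in pattern. The genes and lists were chosen with earlier results of these data known.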

Additional observations from a re-analysis of the deposited data

Results flagged for a closer look

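Control replicate 1 lay apart from the other 3 control mice for 2 genes by Dixon's test at the 95% level. Nts was 15.7 CPM there, against 83.8 to 96.7 CPM in the others. Cysltr2 was 1.37 CPM there, against 8.05 to 8.76 CPM in the others. These were 2 of 14 groups of 4 mice tested, where chance gives 0.7. The same mouse was the lowest control mouse for the other 5 genes without passing the test.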

How the results depend on the processing

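Each gene was refitted in up to 40 other ways. Sst (39 of 39 fits; filtered out of the 24-library fit) and Nts (40 of 40) kept their calls, and Il31ra lost its call only when limma-voom took the 24 libraries singly, with mice as random effects (adjusted p = 0.0588). Nppb lost its call in 10 of 40, including that fit (adjusted p = 0.267). Cysltr2 was called lower in 4 of 40 and Htr1f in 6 of 40. Osmr was called in 0 of 40 (adjusted p from 0.245 to 0.992), and its log2 fold change turned to -0.11 without control replicate 1 and was 0.53 without control replicate 2. The number of the 7 genes called lower, 3 in the main analysis, was 5 with DESeq2 and 0 with the 24 libraries, and 2 to 5 when 1 mouse or 1 library was left out, reaching 5 without control replicate 1 or its library B. The number called higher was 1 in every fit. With the replicate number as a block, 2 genes were called lower and 1 higher. Same-numbered mice, which were also of the same sex, correlated at 0.0831, 0.108, 0.0187 and 0.107 in their deviations from the group means (log2 of CPM + 1). Not every mouse correlated best with its own number, and no pairing beyond sex was assumed. With 0.01 CPM added in place of 1 the same-number values were 0.146 to 0.238. In that setting all pairs of the same sex ran from 0.102 to 0.238, and pairs of opposite sex from -0.285 to -0.117. The other alternatives changed no number called by more than 1.5 times.

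The median r over pairs in control libraries was 0.782 with 0.1 CPM added, 0.788 as Spearman's rho, 0.798 centred on each mouse, 0.731 without libraries 1B and 2B, 0.802 to 0.862 without 1 library and 0.795 to 0.863 without 1 mouse, against 0.844. In the Nav-Tsc2 libraries it was 0.110. Sst in Nav-Tsc2 mice rests on 31 counts in all, and 100 cells per library limit how evenly a rare class is sampled.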
